A study of Mus musculus with 32 samples.

Results

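ERVK repeats are the class II endogenous retroviruses of the mouse genome, a family that includes the intracisternal A particles (IAP). They were taken as every repeat row of the deposited tables whose name gives the family ERVK and the class LTR, except RLTR45-int, ERVB4_2-I_MM-int and ERVB4_2-LTR_MM, which were left aside. This gave 282 of the 1153 repeat subfamilies, among 680 of class LTR, and 25 of the 282 are IAP subfamilies. By name, 44 members are internal parts, which carry the coding region, and 238 are long terminal repeats (LTRs). All but 2 members (RLTR43A and RMER3D2) had a count in at least 1 library, and 240 had one in every library.

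An intact member consists of an internal part with viral genes such as gag and pol between LTRs, and most copies have recombined to a solitary LTR. The LTR holds the promoter, so that its transcripts can carry the virus or drive a neighbouring gene, which is well known for oocytes and early embryos. IAP and the ETn and MusD elements still move in laboratory mice, and they are silenced in most cells by DNA methylation and by TRIM28 and SETDB1, which place a repressive histone mark under the guidance of zinc finger proteins.

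Polyadenylated RNA was sequenced in 32 libraries, 2 for each of 16 groups. Growing oocytes of postnatal day 14 came from transgenic females with histone H3.3 as a transgene, either the form whose lysine 4 is a methionine (H3.3K4M) or the normal one (H3.3WT), and the other groups are labelled wild type. Metaphase II (MII) oocytes came from 12-month and 8-week females. Embryos at 2 cells were untreated ones of 12-month females, and embryos of females of 6 to 8 weeks treated with aphidicolin (a DNA polymerase inhibitor), cycloheximide (a translation inhibitor), MG132 (which blocks the proteasome) or their vehicle, DMSO; embryos at 4 cells had the same treatments as those of the young females. Embryonic stem cells (ESC) of the line AB2.2 had cycloheximide, MG132 or DMSO. Sample titles carry IVF (in vitro fertilization) for the embryos and the word Long for all ESC groups. The sources used here do not give the mouse strain, the promoter of the transgenes, the cells per library, the doses or the treatment times. Oocyte and embryo libraries were made by Smart-seq2 and ESC libraries with a TruSeq kit, so levels in ESC and in embryos differ in kit as well as in cell type. The 12-month 2-cell embryos had no vehicle, so age and vehicle cannot be told apart there.

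Libraries held 14313718 to 34713159 counts. The summed level of 11 oocyte markers was 38292 to 40622 counts per 1000000 library counts (CPM) in growing oocytes, and that of 7 pluripotency markers 4119 to 5044 CPM in ESC, whose oocyte markers summed to at most 86.7 CPM. The pluripotency sum does not set ESC apart. It was higher in growing oocytes, at 5583 to 6284 CPM, and stood at 4306 and 5175 CPM in vehicle 4-cell embryos. Within each group the 2 libraries differed by more than counting error (chi-square per degree of freedom of 2.04 or more over the members). Nothing in the labels says that they came from separate animals or cultures, and the spread that the p-values rest on may therefore be technical. In these bulk samples fewer cells of a type and less RNA per cell cannot be told apart.

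Of all counts, ERVK transcripts took the largest share in growing oocytes, which did not hold as a share of the repeat counts. They made up 2.47% and 2.85% of all counts in the H3.3K4M libraries, against 2.37% and 1.87% in the H3.3WT libraries. In MII oocytes the share was 0.496% and 0.461% at 12 months and 0.539% and 0.562% at 8 weeks. The growing oocytes stood above every MII library. In vehicle embryos it was 1.03% and 1.14% at 2 cells and 1.13% and 1.02% at 4 cells. These 4 libraries all lay above the MII oocytes and below the growing oocytes. The share was 0.554% and 0.516% in 2-cell embryos with cycloheximide, and 0.679% and 0.688% with MG132. At 4 cells the cycloheximide libraries had 1.49% and 1.37%, above both vehicle libraries of that stage, and the aphidicolin libraries 0.769% and 0.779%, below both. As a share of the repeat counts these were 5.95% and 5.03% with cycloheximide and 3.51% and 5.19% with aphidicolin, against 6.56% and 5.09% with DMSO, so that on this scale cycloheximide had the lower mean.

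The share of all repeats was 30.1% to 33.1% in growing oocytes, 4.63% to 6.86% in MII oocytes, 19.8% and 20.3% in the 12-month 2-cell libraries and 19.9% and 20.8% in the DMSO 2-cell libraries. Its order was not that of ERVK throughout: the ERVK share of all counts was 0.778% and 0.884% in the 12-month 2-cell libraries, below both DMSO ones, at a share of repeats that overlapped. As a share of the repeat counts, ERVK stood at 6.28% and 4.06% in 2-cell embryos with cycloheximide, 6.50% and 4.24% with MG132 and 5.18% and 5.48% with DMSO, and the groups overlapped. It stood at 7.87% and 10.6% in 8-week MII oocytes, above the vehicle 2-cell embryos, so that the order of these stages turns round on this scale. Growing oocytes had 7.44% and 8.63% with H3.3K4M and 7.88% and 5.86% with H3.3WT. At 12 months MII oocytes had 9.14% and 9.97%, above all growing oocyte libraries, and the 8-week MII libraries overlapped the growing oocytes. In ESC, where repeats were 2.93% to 4.03% of all counts, ERVK was 16.5% to 23.02% of the repeat counts, above all other libraries.

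**Figure D1:**
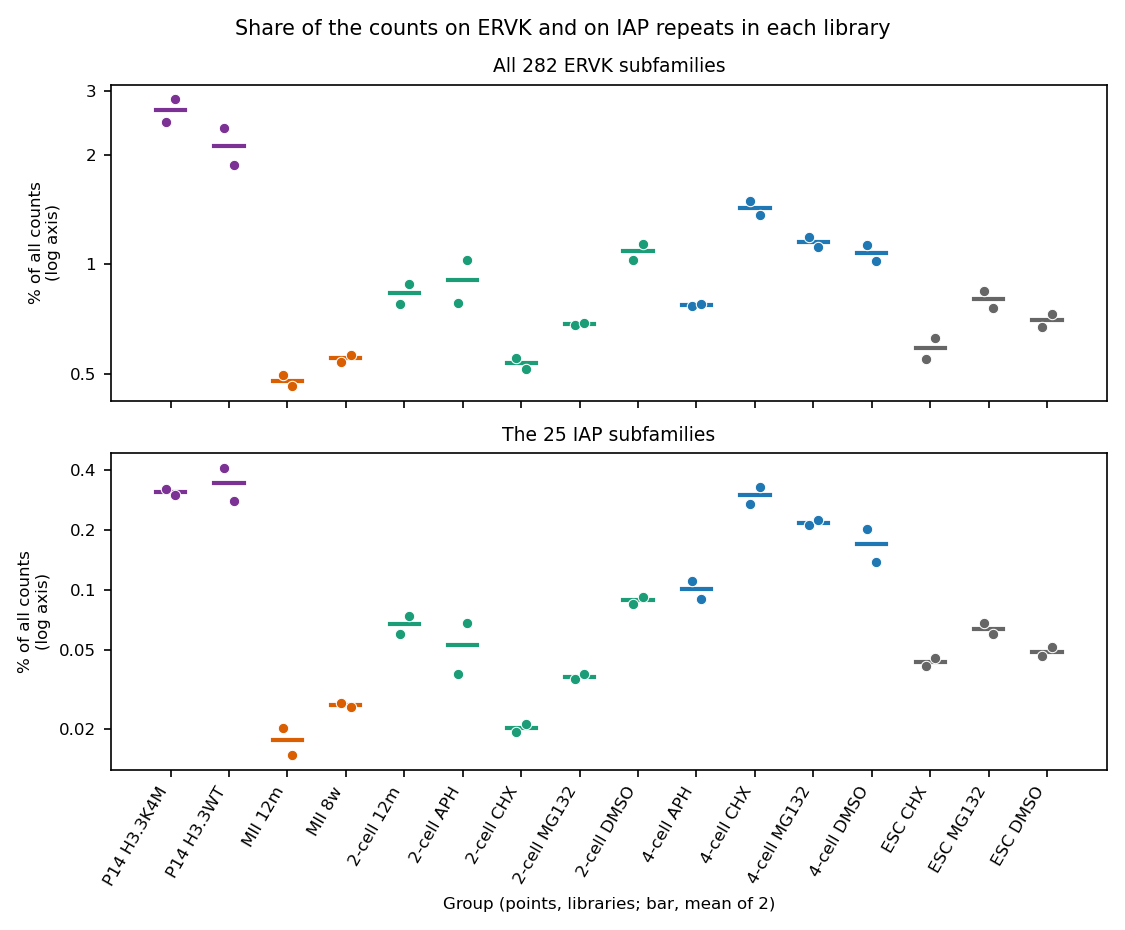
Percent of all counts on the 282 ERVK subfamilies (top) and on the 25 IAP subfamilies (bottom), on log axes, for 16 groups along the x axis; points are libraries and bars the mean of 2. Growing oocytes reach 2.85% for ERVK, and IAP is lowest in 12-month MII oocytes, at 0.0147% in 1 library.

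The name groups that held the most ERVK counts in growing oocytes and in ESC were others than in MII oocytes and 2-cell embryos. In growing oocytes MMERVK10C with the RLTR10 rows held 72.2% to 82.96% of the ERVK counts, mainly through RLTR10-int, against 7.41% to 9.60% in MII oocytes and 2.05% to 3.57% in ESC. RLTR10-int stood at 16518 and 18805 CPM in H3.3K4M oocytes and 13564 and 11146 CPM in H3.3WT oocytes, and between 33.7 and 371 CPM in the remaining libraries. The 4 growing oocyte libraries were the highest by far. The LTR row of that name, RLTR10, had 3006 and 4497 CPM in H3.3K4M oocytes and 3213 and 2211 CPM in H3.3WT oocytes, and at most 135 CPM elsewhere.

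ESC were filled by ETn and MusD instead, non-autonomous and coding relatives that share an LTR. These rows held 49.4% to 61.3% of the ERVK counts there and 0.214% to 0.347% in growing oocytes. MMETn-int had 1567 and 1868 CPM in ESC with cycloheximide, 2899 and 2036 with MG132 and 2467 and 2479 with DMSO, against 695 and 709 CPM in vehicle 4-cell embryos and 12.2 and 7.60 in H3.3WT oocytes. ETnERV-int was likewise highest by mean in ESC, with 1503 and 1642 CPM under DMSO, while ETnERV2-int was not, with 5.60 and 6.86 CPM in the same libraries against 188 and 182 CPM in vehicle 4-cell embryos. In MII oocytes and 2-cell embryos the RMER rows took the largest part, 34.2% to 37.1% and 28.2% to 37.3% of the ERVK counts. At 4 cells they held 15.5% to 22.6%, and the group that led differed between libraries: in vehicle embryos RMER held 15.5% and 16.4%, the remaining RLTR rows 15.2% and 16.4% and IAP 17.97% and 13.4%.

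**Figure D2:**
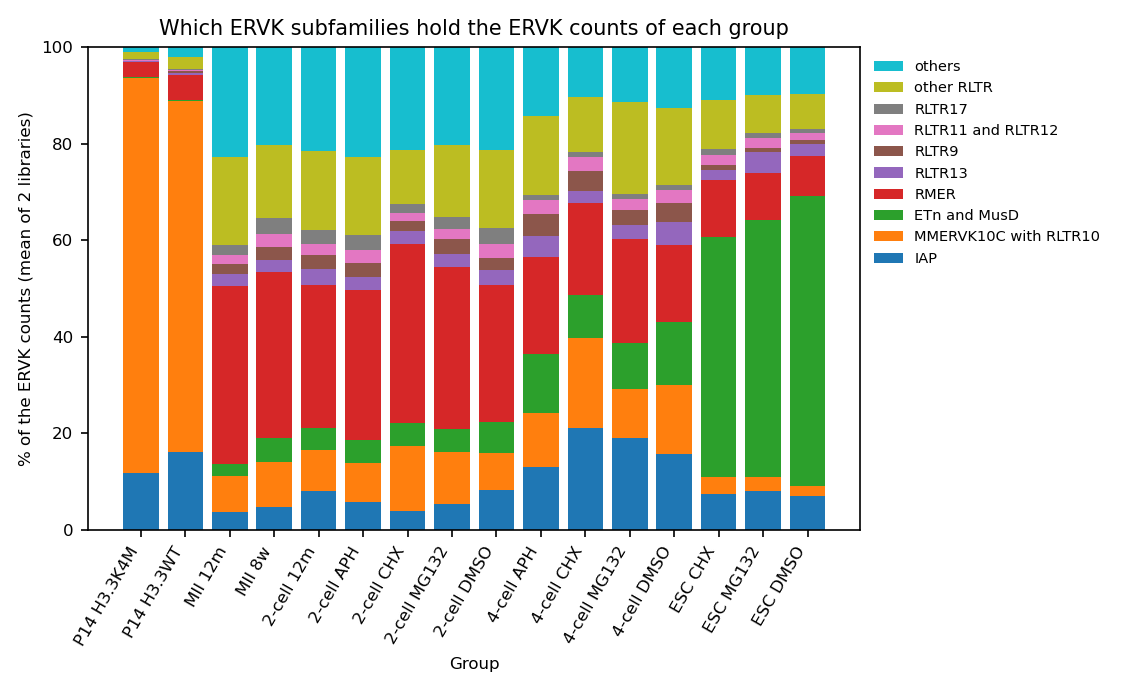
Percent of the ERVK counts held by each of 10 name groups, as stacked bars of the mean of 2 libraries, for 16 groups. MMERVK10C with RLTR10 fills 72.2% to 82.96% of the ERVK counts of growing oocyte libraries, and ETn and MusD 49.4% to 61.3% of those of ESC libraries.

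As a share of all counts, IAP subfamilies were low in MII oocytes and high in growing oocytes and 4-cell embryos. Of the repeat counts they made up 0.318% to 0.483% in MII oocytes, which spanned the 0.425% and 0.444% of DMSO 2-cell embryos. They made up 0.873% to 1.36% in growing oocytes, 0.507% to 1.21% at 4 cells and 1.19% to 1.68% in ESC. On this scale the ESC groups had the highest means. They held 3.20% to 4.98% of the ERVK counts in MII oocytes, 8.21% and 8.10% at 2 cells with DMSO and 17.97% and 13.4% in vehicle 4-cell embryos. IAPEz-int, an internal IAP row, averaged 2369 ± 175 CPM in H3.3K4M and 2622 ± 709.5 CPM in H3.3WT growing oocytes (SD, n = 2). In MII oocytes it averaged 22.02 ± 9.87 CPM at 12 months and 41.7 ± 12.95 CPM at 8 weeks. At 2 cells it averaged 175 ± 33.7 CPM in 12-month, 112 ± 67.6 in aphidicolin, 32.7 ± 5.24 in cycloheximide, 37.9 ± 6.17 in MG132 and 266 ± 5.82 in DMSO embryos. The 4 libraries with cycloheximide or MG132 lay within the range of the 4 MII libraries, 15.05 to 50.8 CPM. At 4 cells it averaged 458 ± 176 CPM with aphidicolin, 1495 ± 378 with cycloheximide, 1034 ± 45.7 with MG132 and 892 ± 255 with DMSO, and in ESC 260.4 ± 18.7 with cycloheximide, 432 ± 37.9 with MG132 and 325 ± 21.4 with DMSO. By mean the order ran, low to high, from 12-month MII oocytes through 2-cell cycloheximide and MG132 embryos and 8-week MII oocytes to aphidicolin and 12-month 2-cell embryos, then cycloheximide ESC, DMSO 2-cell embryos, DMSO and MG132 ESC, 4-cell embryos with aphidicolin, DMSO, MG132 and cycloheximide, and growing oocytes. The libraries of 12-month MII oocytes were all below those of 2-cell cycloheximide embryos, by less than the spread within either group. The libraries of neighbours overlapped between 2-cell cycloheximide and MG132 embryos, MG132 2-cell embryos and 8-week MII oocytes, aphidicolin and 12-month 2-cell embryos, cycloheximide ESC and DMSO 2-cell embryos, MG132 ESC and aphidicolin 4-cell embryos, MG132 and DMSO 4-cell embryos, and H3.3K4M and H3.3WT oocytes.

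Other IAP rows had other orders. IAP-d-int was highest in 2-cell embryos with MG132, at 115 and 147 CPM, and lowest by mean at 4 cells with aphidicolin, MG132 or DMSO, where the DMSO libraries had 18.9 and 15.9 CPM. IAPEY5_LTR had 45.2 and 85.9 CPM in 8-week MII oocytes and no more than 0.420 CPM in ESC. IAPA_MM-int was under 1 CPM in the 4 MII libraries and had 146 and 108 CPM in vehicle 4-cell embryos. IAPLTR2a2_Mm, an LTR, was highest in growing oocytes, as IAPEz-int was.

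**Figure D3:**
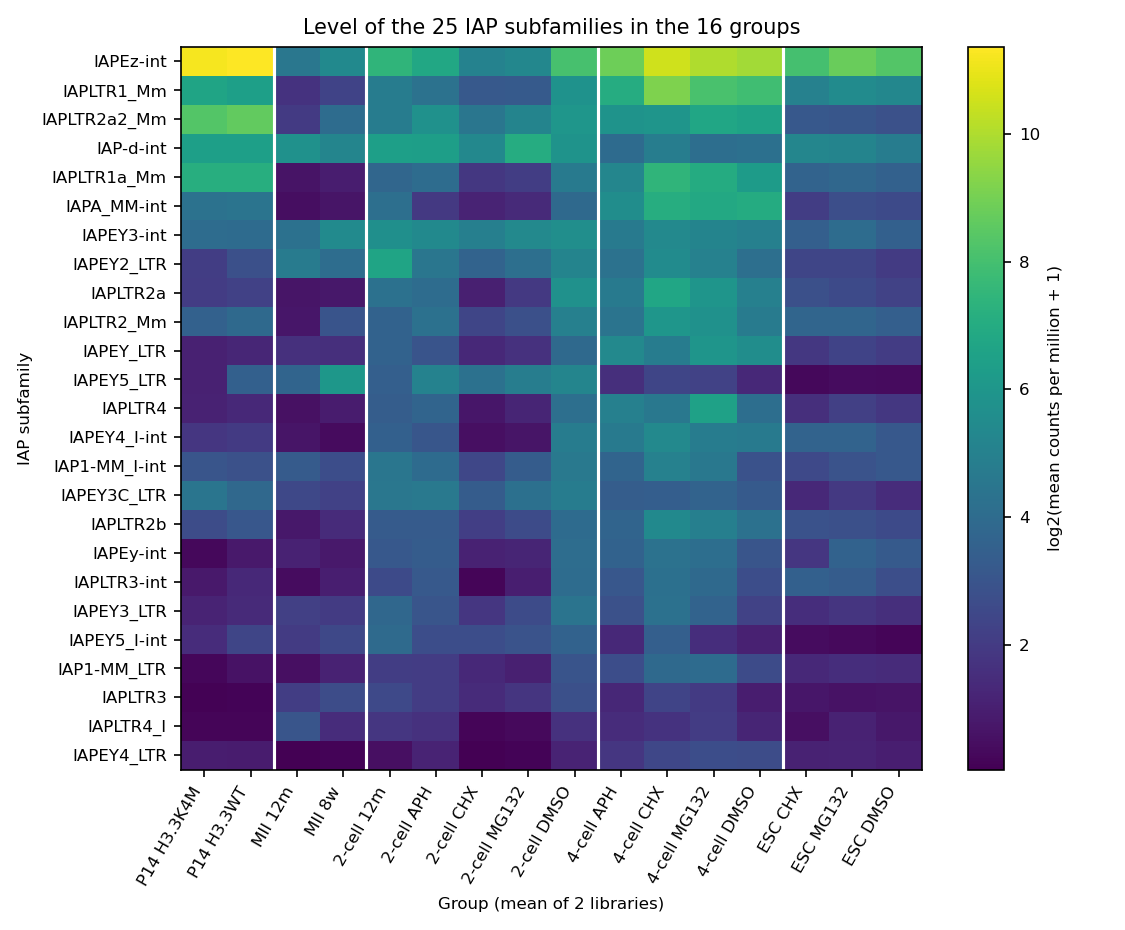
Level of the 25 IAP subfamilies (rows, by mean level) in the 16 groups (columns), coloured by log2 of the mean CPM of 2 libraries plus 1. IAPEz-int is the brightest row in growing oocytes and 4-cell embryos, and the cycloheximide and MG132 columns at 2 cells are darker than the DMSO column for most rows.

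Comparisons used edgeR's quasi-likelihood test, with p-values adjusted by Benjamini-Hochberg over all repeat subfamilies tested and a threshold of 0.05. CPM values of the compared groups are from here on scaled by edgeR's TMM factors unless called plain, and the error of a log2 fold change is its standard error. Between MII oocytes and 2-cell embryos of young females, 92 of 273 tested members rose and 11 fell, beside 30.4% of all tested repeats higher and 2.98% lower. Of the 25 IAP rows 14 rose and 1 fell, with a median log2 change of 1.97, beside 0.91 over ERVK, 0.95 over all repeats and 0.37 over all features (0.66 where libraries were scaled on genes alone). IAPLTR1a_Mm, an IAP LTR, had 16.2 and 19.2 CPM in vehicle 2-cell embryos, against 1.31 and 1.02 CPM in 8-week MII oocytes (log2 fold change 3.92 ± 0.52, adjusted p = 0.000603). IAPA_MM-int had 10.5 and 10.01 CPM in 2-cell embryos, against 0.916 and 0.582 CPM in MII oocytes (3.76 ± 0.40, adjusted p = 0.000162). The libraries of both groups stood well apart in both rows. IAPLTR2a rose by the largest step among IAP LTRs, with 42.03 and 35.3 CPM in 2-cell embryos, against 0.873 and 1.02 CPM in MII oocytes (5.35 ± 0.47, adjusted p = 5.28e-05). The internal rows IAPEz-int and IAPEY4_I-int rose too (1.88 ± 0.35 and 5.56 ± 0.82). IAPEY5_LTR went the other way, with 20.95 and 32.01 CPM in 2-cell embryos, against 54.4 and 118 CPM in MII oocytes (-1.70 ± 0.49, adjusted p = 0.0255), a call lost without 2-cell DMSO replicate 1 or 2 or MII 8-week replicate 2.

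Outside IAP, RLTR13 rows rose in 11 of 23 with 1 lower and a median of 1.59, while MMERVK10C with RLTR10 had 2 higher and 2 lower of 11. RLTR9B2 had 10.4 and 11.9 CPM in 2-cell embryos, against 0.305 and 0.145 CPM in MII oocytes (5.59 ± 0.92, adjusted p = 0.0019). Among the rows that fell, BGLII_C had 8.20 and 9.76 CPM in 2-cell embryos, against 33.3 and 31.1 CPM in MII oocytes (-1.84 ± 0.43, adjusted p = 0.0103, lost without 2-cell DMSO replicate 1), and ERVB4_3-LTR_MM had 15.8 and 11.3 CPM in 2-cell embryos, against 36.8 and 51.9 CPM in MII oocytes (-1.71 ± 0.37, adjusted p = 0.00785, lost without 2-cell DMSO replicate 2). The count of 103 called members was 52 without 2-cell DMSO replicate 2, 62 and 68 without MII 8-week replicate 1 or 2. The 5 markers of the 2-cell stage rose as well (beside 10.1% of genes), to a summed 695 and 966 plain CPM in vehicle 2-cell embryos, against 0.870 and 1.84 CPM in 8-week MII oocytes, while 6 of 11 oocyte markers fell (beside 10.1% of genes), to 4699 and 5434 CPM in 2-cell embryos, against 14084 and 13022 CPM in MII oocytes. In 2-cell embryos the 8 granulosa and cumulus markers summed to 55.1 and 38.9 CPM, against 102 and 77.9 CPM in MII oocytes, and of 7 tested 0 rose and 1 fell (Amh and Inha at 0 in both libraries in 2-cell embryos, and Foxl2 and Amh at 0 in both libraries in MII oocytes). In 2-cell embryos the 3 blood markers summed to 32.9 and 20.9 CPM, against 0.326 and 0.248 CPM in MII oocytes, and of 3 tested 1 rose and 0 fell. The 6 fibroblast markers summed to 12.2 and 11.2 CPM in 2-cell embryos, against 12.1 and 7.83 CPM in MII oocytes. Of 6 tested 0 rose and 1 fell. The part of these markers in the result was not tested.

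From 12-month females, 82 of 273 members rose between MII oocytes and 2-cell embryos and 3 fell, beside 25.9% and 1.29% of all tested repeats. IAP rows rose in 17 of 25 and fell in 0, and their median was 2.47, beside 1.06 over ERVK. IAPA_MM-int had 14.1 and 17.5 CPM in 12-month 2-cell embryos, against 0.336 and 0.554 CPM in 12-month MII oocytes (5.14 ± 0.43, adjusted p = 4.41e-05), and IAPLTR2_Mm 11.3 and 9.63 CPM in 2-cell embryos, against 0.966 and 0.640 CPM in MII oocytes (3.70 ± 0.51, adjusted p = 0.000716). The groups were apart in every library. RLTR13G and RLTR10C also rose (4.16 ± 0.54 and 1.60 ± 0.29). The 85 calls became 49, 41, 44 and 27 without 12-month 2-cell replicate 1 or 2 or MII replicate 1 or 2. The difference between the ages in this step called 0 of 273 members with edgeR, beside 0% of all repeats. By an unadjusted p under 0.05, 26 were higher and 6 lower, beside 59 and 34 of 1006 tested repeats. DESeq2 called 12 members, all higher, and no share of all repeats is given for that count. Markers moved at 12 months as well, in plain CPM, and their part was not tested. The 3 blood markers summed to 14.1 and 8.52 CPM in 12-month 2-cell embryos, against 0.393 and 0.738 CPM in 12-month MII oocytes. Of 3 tested 1 rose and 0 fell. The 6 fibroblast markers summed to 8.62 and 11.7 CPM in 2-cell embryos, against 12.6 and 9.98 CPM in MII oocytes. Of 6 tested 0 rose and 1 fell. In 12-month 2-cell embryos the 5 2-cell-stage markers summed to 320.0 and 339 CPM, against 1.07 and 0.141 CPM in 12-month MII oocytes, and of 5 tested 5 rose and 0 fell, beside 5.8% and 6.76% of genes (Zfp352, Usp17la and Tdpoz4 at 0 in both libraries in 12-month MII oocytes). In 12-month 2-cell embryos the 11 oocyte markers summed to 6674 and 7664 CPM, against 12892 and 13923 CPM in 12-month MII oocytes, and of 11 tested 0 rose and 8 fell. In 12-month 2-cell embryos the 8 granulosa and cumulus markers summed to 29.97 and 34.1 CPM, against 138 and 108 CPM in 12-month MII oocytes, and of 7 tested 0 rose and 1 fell (Amh and Inha at 0 in both libraries in 12-month 2-cell embryos, and Amh at 0 in both libraries in 12-month MII oocytes).

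From 2 to 4 cells under DMSO, 28 of 273 members rose and 48 fell, beside 7.36% of all tested repeats higher and 19.7% lower. The median log2 change over all features was -0.57, and -0.36 with DESeq2 size factors; over ERVK it was -0.24 and over IAP -0.27, so that the median ERVK member stood above the median feature. IAP rows parted, with 5 higher and 6 lower. IAPEz-int rose to 1061 and 679.8 CPM in 4-cell embryos, against 187 and 202 CPM in 2-cell embryos (2.16 ± 0.36, adjusted p = 0.00187), and IAPA_MM-int to 144 and 103 CPM in 4-cell embryos, against 10.5 and 10.01 CPM in 2-cell embryos (3.59 ± 0.37, adjusted p = 0.000122). The groups did not overlap in either row. IAPLTR1_Mm, IAPLTR1a_Mm and IAPEY_LTR rose as well (2.51 ± 0.45, 2.06 ± 0.47 and 2.16 ± 0.37), IAPLTR1a_Mm not without 2-cell or 4-cell replicate 1. Among the IAP rows that fell, IAPEY5_LTR went furthest, with 1.17 and 1.87 CPM in 4-cell embryos, against 20.95 and 32.01 CPM in 2-cell embryos (-4.12 ± 0.55, adjusted p = 0.000603). IAP-d-int had 18.7 and 15.2 CPM in 4-cell embryos, against 27.5 and 56.6 CPM in 2-cell embryos (-1.31 ± 0.36, adjusted p = 0.0245), a call lost with DESeq2 size factors and without 2-cell replicate 2 or 4-cell replicate 1 or 2.

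Among the other internal rows, MMERVK10C-int had 1201 and 949.6 CPM in 4-cell embryos, against 243 and 285 CPM in 2-cell embryos (2.03 ± 0.26, adjusted p = 0.000513), and ETn and MusD rows rose in 3 of 5 with ETnERV3-int at 1.70 ± 0.33 and their LTR RLTRETN_Mm at 1.92 ± 0.31. The LTRs RLTR13B1 and RLTR13B2 rose, RLTR13B2 by 3.21 ± 0.39 and RLTR13B1 with 99.2 and 99.6 CPM in 4-cell embryos, against 5.49 and 16.02 CPM in 2-cell embryos (3.21 ± 0.50, adjusted p = 0.00141). RLTR19 had 444 and 481 CPM in 4-cell embryos, against 45.5 and 53.5 CPM in 2-cell embryos (3.22 ± 0.26, adjusted p = 2.56e-05), and the 2 groups were far apart. BGLII, RLTR13D6 and RLTR12A fell (-2.77 ± 0.24, -2.99 ± 0.34 and -1.56 ± 0.37; RLTR12A not without 4-cell replicate 1). Of the 42 RMER rows tested 12 fell and 3 rose. The 76 calls were 45 without 4-cell replicate 2.

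Stage markers moved with these ERVK changes, in plain CPM, and their part was not tested. In 4-cell embryos the 11 oocyte markers summed to 135 and 149 CPM, against 4699 and 5434 CPM in 2-cell embryos, and of 11 tested 1 rose and 10 fell, beside 19.6% and 29.4% of genes. In 4-cell embryos the 5 2-cell-stage markers summed to 47.8 and 24.6 CPM, against 695 and 966 CPM in 2-cell embryos, and of 5 tested 0 rose and 4 fell. In 4-cell embryos the 7 pluripotency markers summed to 4306 and 5175 CPM, against 92.8 and 169 CPM in 2-cell embryos, and of 7 tested 3 rose and 1 fell. In 4-cell embryos the 8 granulosa and cumulus markers summed to 342 and 331 CPM, against 55.1 and 38.9 CPM in 2-cell embryos, and of 7 tested 1 rose and 2 fell (Foxl2, Amh, Inha, Fshr and Hsd3b1 at 0 in both libraries in 4-cell embryos, and Amh and Inha at 0 in both libraries in 2-cell embryos). The 4-cell sum thus rests on at most Gja1, Cyp19a1 and Kitl, and the list median was -5.32, opposite to the sum.

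Most IAP subfamilies fell in 2-cell embryos with cycloheximide or MG132. With cycloheximide 150 of 273 members fell and 5 rose, beside 50.6% of all tested repeats lower and 1.67% higher, so the share of ERVK members lower (54.9%) was near that of all repeats. Of the 25 IAP rows 19 fell and 0 rose, with a median log2 change of -2.40, beside -1.50 over ERVK, -1.42 over repeats and -0.33 over all features. With MG132 117 fell and 1 rose of 273, beside 37.7% and 0.394% of all repeats, and 16 IAP rows fell and 1 rose, with a median of -2.79, beside -1.18 over ERVK. Both drugs were set against the same DMSO libraries.

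IAPEz-int had 34.95 and 45.2 CPM with cycloheximide and 28.2 and 36.1 CPM with MG132, against 238 and 255 CPM with DMSO. The 4 drug libraries lay under all DMSO libraries, and the log2 changes were -2.62 ± 0.40, adjusted p = 0.000593 with cycloheximide and -2.94 ± 0.41, adjusted p = 0.000566 with MG132. IAPEY4_I-int had 0.341 and 0.715 CPM with cycloheximide and 0.290 and 0.793 CPM with MG132, against 27.3 and 22.7 CPM with DMSO (-5.55 ± 0.62 and -5.45 ± 0.62). The LTR IAPLTR2a had 1.19 and 1.47 CPM with cycloheximide and 2.61 and 2.23 CPM with MG132, against 53.3 and 44.6 CPM with DMSO (-5.19 ± 0.64 and -4.34 ± 0.61). In both rows the drug libraries were a small part of the DMSO ones. IAPLTR1_Mm and IAPLTR1a_Mm fell in both as well, by log2 changes of -2.35 ± 0.41 and -2.75 ± 0.50 with cycloheximide and -2.84 ± 0.42 and -3.01 ± 0.51 with MG132. IAP-d-int differed from the rest, with 97.03 and 126 CPM with MG132, against 34.9 and 71.4 CPM with DMSO (1.07 ± 0.36, adjusted p = 0.0365), a call lost without either MG132 library or DMSO replicate 1, and 45.7 and 49.2 CPM with cycloheximide (-0.16 ± 0.36, adjusted p = 0.713). IAPEY3-int did not pass the test with either drug (-0.28 ± 0.35 and -0.38 ± 0.35), nor did IAPEY5_LTR (-0.58 ± 0.38 and -0.52 ± 0.38).

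Among the ETn and MusD rows MMETn-int had 32.5 and 24.8 CPM with cycloheximide and 48.5 and 26.7 CPM with MG132, against 399 and 132 CPM with DMSO (-3.21 ± 0.50, adjusted p = 0.000617, and -2.82 ± 0.49, adjusted p = 0.00151). The DMSO libraries differed from each other but lay above all drug libraries. Its LTR RLTRETN_Mm did not pass the test (0.06 ± 0.30 with cycloheximide and 0.09 ± 0.30 with MG132). MMERVK10C-int did not either (-0.23 ± 0.45 and -0.53 ± 0.45). RLTR10-int rose with cycloheximide, to 231 and 345 CPM with cycloheximide, against 100.5 and 126 CPM with DMSO (1.35 ± 0.30, adjusted p = 0.00371), and had 137 and 162 CPM with MG132 (0.41 ± 0.29, adjusted p = 0.28). The 4 RLTR17 rows fell with both drugs, and RLTR13 rows in 16 of 23 with cycloheximide and 8 of 23 with MG132, beside 50.6% and 37.7% of all repeats lower, so that the MG132 share of RLTR13 rows was no higher than that of all repeats. RLTR9B2 had 1 count in both cycloheximide libraries together, against 13.2 and 15.1 CPM with DMSO.

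The LTRs that rose with cycloheximide were BGLII_C, RMER19A, RLTR26C_MM and RLTR13D3. BGLII_C had 62.7 and 66.6 CPM with cycloheximide, against 10.4 and 12.3 CPM with DMSO (2.51 ± 0.35, adjusted p = 0.000344), and RMER19A 537 and 479 CPM with cycloheximide, against 247 and 285 CPM with DMSO (0.93 ± 0.26, adjusted p = 0.0116, lost without DMSO replicate 1). The groups did not overlap in these 2 rows. RLTR26C_MM and RLTR13D3 (1.15 ± 0.38 and 1.09 ± 0.43) lost their calls without cycloheximide replicate 2, among others.

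Markers moved with these changes. In plain CPM, the summed level of the 11 oocyte markers was 8922 and 14716 CPM with cycloheximide and 10425 and 10838 CPM with MG132, against 4699 and 5434 CPM with DMSO, and 8 and 7 of them rose (beside 11% and 5.1% of genes). The 5 markers of the 2-cell stage all fell with both drugs (beside 13% and 4.68% of genes), to a sum of 2.76 and 4.13 CPM with cycloheximide and 15.6 and 35.7 CPM with MG132, against 695 and 966 CPM with DMSO, and Tdpoz4 was at 0 in the 4 drug libraries. With cycloheximide the 7 pluripotency markers summed to 63.5 and 143 CPM, against 92.8 and 169 CPM with DMSO, and of 7 tested 2 rose and 2 fell. With MG132 the 8 granulosa and cumulus markers summed to 37.2 and 35.7 CPM, against 55.1 and 38.9 CPM with DMSO, and of 6 tested 1 rose and 1 fell (Foxl2, Amh and Inha at 0 in both libraries with MG132, and Amh and Inha at 0 in both libraries with DMSO). The part of these markers in the ERVK changes was not tested. The MG132 count of 118 was 39 and 57 without MG132 replicate 1 or 2 and 63 without DMSO replicate 2; the cycloheximide count of 155 was 109 to 131 without any 1 of its 4 libraries.

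With aphidicolin at 2 cells 0 of 273 members passed the test in edgeR, beside 0.197% of all repeats. By an unadjusted p under 0.05, 30 were lower and 0 higher, beside 131 and 5 of 1016 tested repeats. DESeq2 called 15 members, all lower, and no share of all repeats is given for that count. The median was -0.47 over ERVK, near the -0.43 over all repeats, and -0.83 over IAP, beside -0.035 over all features. IAPEz-int had 58.4 and 141 CPM with aphidicolin, against 238 and 255 CPM with DMSO (-1.30 ± 0.38, adjusted p = 0.148). The aphidicolin libraries differed from each other by more than the DMSO ones did. Leaving out aphidicolin replicate 2 gave 2 calls, all of them IAP rows. Markers of the 2-cell stage moved with these values, in plain CPM, and their part was not tested. With aphidicolin the 5 2-cell-stage markers summed to 39.6 and 123 CPM, against 695 and 966 CPM with DMSO, and of 5 tested 0 rose and 2 fell, beside 0.00893% and 0.192% of genes.

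**Figure D4:**
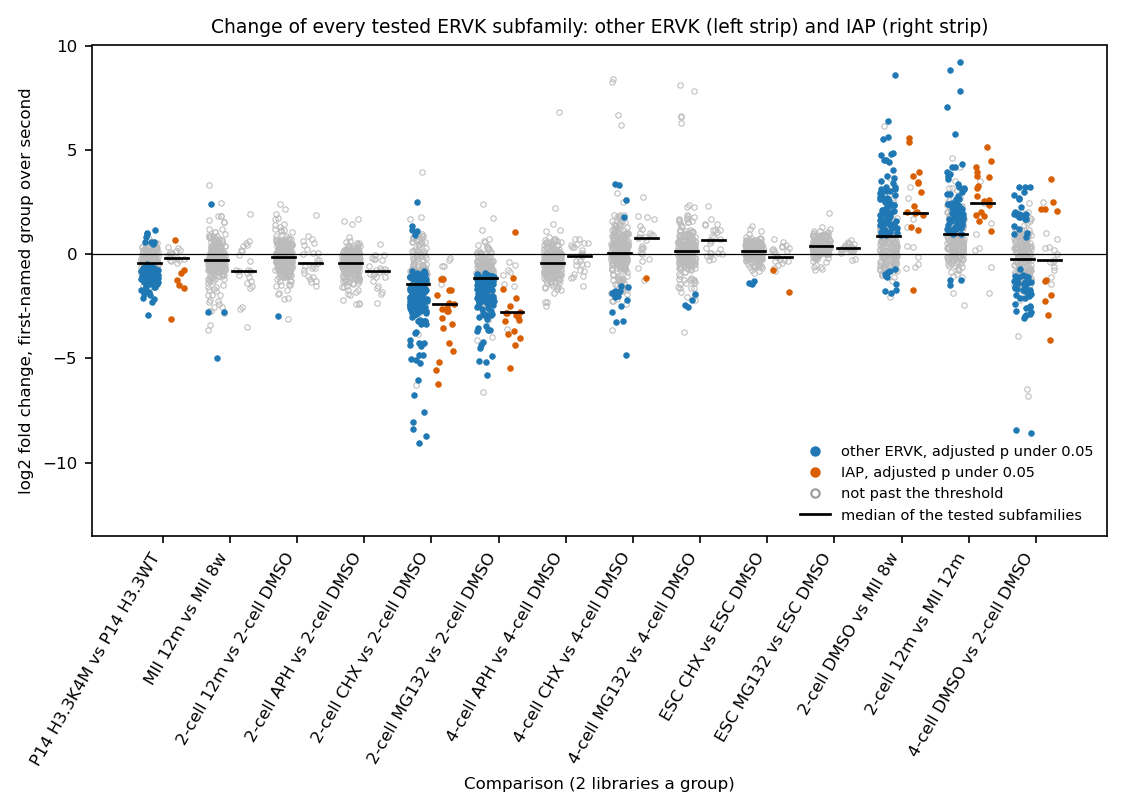
Log2 fold change (y axis, first-named group over second) of each tested member in the 14 comparisons, with IAP rows in the right strip and other ERVK rows in the left; filled points passed an adjusted p of 0.05 and black bars are medians. At 2 cells the IAP medians are -2.40 with cycloheximide and -2.79 with MG132, beside 0.76 and 0.67 at 4 cells.

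At 4 cells some of the largest falls under the same drugs were those of RLTR13 LTRs. With cycloheximide 4 of 273 members rose and 14 fell, beside 0.997% and 3.39% of all tested repeats. The median log2 change was 0.10 over ERVK and 0.76 over IAP, beside 0.41 over all features. RLTR13B1 had 13.2 and 11.1 CPM with cycloheximide, against 116 and 117 CPM with DMSO (-3.26 ± 0.42, adjusted p = 0.00307), and RLTR13B2 11.9 and 9.92 CPM with cycloheximide, against 104 and 94.97 CPM with DMSO (-3.19 ± 0.36, adjusted p = 0.00177). RLTR13C2 had 16.3 and 11.1 CPM with cycloheximide, against 101 and 85.7 CPM with DMSO (-2.77 ± 0.37, adjusted p = 0.00324). In the 3 rows both cycloheximide libraries were far below the DMSO ones. The internal row ETnERV2-int had 40.8 and 49.0 CPM with cycloheximide, against 217 and 203 CPM with DMSO (-2.22 ± 0.31, adjusted p = 0.00425), and ETnERV3-int -1.76 ± 0.32, lost without either cycloheximide library or DMSO replicate 1.

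In the other direction RLTR9A3A had 143 and 70.2 CPM with cycloheximide at 4 cells, against 11.1 and 10.3 CPM with DMSO (3.32 ± 0.39, adjusted p = 0.00177), in a row that held 0.247 and 0.440 plain CPM with cycloheximide at 2 cells. RLTR44E, RLTR12E and RLTR13D6 also rose (3.37 ± 0.71, 2.59 ± 0.47 and 1.77 ± 0.39), and lost their calls without cycloheximide replicate 1 or 2, among others. Of the IAP rows only IAPLTR2a2_Mm passed the test, and it fell (-1.13 ± 0.26, adjusted p = 0.0399), lost without any 1 of the 4 libraries. IAPEz-int had 957 and 1561 CPM with cycloheximide, against 1237 and 796 CPM with DMSO (0.31 ± 0.39, adjusted p = 0.755). The 18 calls became 7 and 6 without cycloheximide replicate 1 or 2, and 7 and 10 without DMSO replicate 1 or 2. The blood marker Hba-a1, the single one tested, rose with cycloheximide (the 3 blood markers summed to 275 and 256 plain CPM with cycloheximide, against 19.7 and 39.1 CPM with DMSO, Ptprc and Hbb-bs being at 0 in both cycloheximide libraries). The 2-cell-stage markers summed to 200.2 and 337 CPM with cycloheximide, against 47.8 and 24.6 CPM with DMSO, with 2 of 5 higher (beside 8.77% of genes higher and 10.3% lower). With cycloheximide the 11 oocyte markers summed to 258 and 244 CPM, against 135 and 149 CPM with DMSO, and of 11 tested 2 rose and 0 fell. With cycloheximide the 7 pluripotency markers summed to 1483 and 1412 CPM, against 4306 and 5175 CPM with DMSO, and of 7 tested 0 rose and 1 fell. With cycloheximide the 8 granulosa and cumulus markers summed to 10.5 and 11.2 CPM, against 342 and 331 CPM with DMSO, and of 4 tested 0 rose and 1 fell (Amh, Fshr and Hsd3b1 at 0 in both libraries with cycloheximide, and Foxl2, Amh, Inha, Fshr and Hsd3b1 at 0 in both libraries with DMSO). Their median was 2.49, opposite to the sum, which few genes carry. The part of these markers was not tested.

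With MG132 at 4 cells 0 of 273 members rose and 4 fell, beside 0.0997% and 0.698% of all repeats, and the 4 were RLTR13C2, RLTR13B1, RLTR13B2 and RLTR45. RLTR13C2 had 17.96 and 13.9 CPM with MG132, against 101 and 85.7 CPM with DMSO (-2.55 ± 0.36, adjusted p = 0.0138), RLTR13B1 12.8 and 29.4 CPM (-2.46 ± 0.41) and RLTR13B2 23.4 and 19.7 CPM (-2.21 ± 0.34). RLTR45, an LTR, had 98.4 and 111 CPM with MG132, against 380.3 and 405 CPM with DMSO (-1.90 ± 0.25, adjusted p = 0.0113). All MG132 libraries lay under the DMSO libraries in these rows. Without MG132 replicate 1 or 2 the count was 0 or 2, and without DMSO replicate 1 or 2 it was 1 or 2. No IAP row passed the test in edgeR, and DESeq2 called 1, higher. By an unadjusted p under 0.05, 5 of 25 IAP rows were higher and 0 lower, beside 102 and 30 of 1003 tested repeats. The IAP median was 0.67, beside 0.18 over ERVK and 0.23 over all repeats. Markers moved with MG132 as well, in plain CPM, and their part was not tested. With MG132 the 8 granulosa and cumulus markers summed to 51.3 and 83.4 CPM, against 342 and 331 CPM with DMSO, and of 4 tested 0 rose and 1 fell, beside 3.06% and 4.33% of genes (Amh, Inha and Fshr at 0 in both libraries with MG132, and Foxl2, Amh, Inha, Fshr and Hsd3b1 at 0 in both libraries with DMSO). Their median was 1.42, opposite to the sum, which few genes carry. With MG132 the 3 blood markers summed to 4.90 and 5.05 CPM, against 19.7 and 39.1 CPM with DMSO, and of 1 tested 0 rose and 1 fell (Ptprc at 0 in both libraries with MG132, and Hbb-bs at 0 in both libraries with DMSO). With MG132 the 7 pluripotency markers summed to 2779 and 3613 CPM, against 4306 and 5175 CPM with DMSO, and of 7 tested 0 rose and 1 fell. With MG132 the 11 oocyte markers summed to 406 and 213 CPM, against 135 and 149 CPM with DMSO, and of 11 tested 1 rose and 0 fell.

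With aphidicolin at 4 cells 0 of 273 members passed the test in edgeR, beside 0% of all repeats. By an unadjusted p under 0.05, 1 was higher and 29 lower, beside 6 and 71 of 1003 tested repeats. DESeq2 called 7 members, all lower, and no share of all repeats is given for that count. The median was -0.39 over ERVK and -0.088 over IAP, beside -0.32 over all repeats and 0.025 over all features. RLTR13B1 had 69.7 and 51.95 CPM with aphidicolin, against 116 and 117 CPM with DMSO (-0.93 ± 0.39, adjusted p = 0.593), and IAPEz-int 664 and 318 CPM with aphidicolin, against 1237 and 796 CPM with DMSO (-1.05 ± 0.39, adjusted p = 0.593). The aphidicolin libraries were lower in both rows.

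The change at 2 cells was tested against that at 4 cells in 1 fit of 18 embryo libraries. For cycloheximide 108 of 275 members had a lower change at 2 cells and 2 a higher one, beside 34.6% and 1.23% of all repeats, and 18 of 25 IAP rows were among the lower. The median difference was -1.64 over ERVK and -3.22 over IAP, beside -1.77 over all repeats and -1.29 over all features. The typical feature was thus shifted down too, and the ERVK median was not below that of repeats. For MG132 the counts were 67 and 1, beside 24.7% and 0.38%, with 15 IAP rows lower. The medians were -1.39 over ERVK and -2.98 over IAP, beside -1.43 over all repeats and -0.49 over all features. IAPEz-int differed by -2.97 ± 0.62, adjusted p = 0.00257 for cycloheximide and -2.95 ± 0.62, adjusted p = 0.00344 for MG132 on the log2 scale. ETnERV2-int differed the other way for cycloheximide (1.96 ± 0.48, adjusted p = 0.00636). For aphidicolin 0 members differed in edgeR, beside 0% of all repeats, and 0 in DESeq2. By an unadjusted p under 0.05, 1 was higher and 4 lower, beside 17 and 20 of 1053 tested repeats. The cycloheximide count was 69 without 2-cell DMSO replicate 2, 65 without 4-cell cycloheximide replicate 1 and 66 and 52 without 4-cell DMSO replicate 1 or 2. The MG132 count was 41 without 2-cell MG132 replicate 1 and 37 without 4-cell DMSO replicate 2.

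In ESC with cycloheximide 5 of 259 members passed the test and all fell, beside 0.932% of all repeats lower and 0.583% higher: RLTR13B1, RLTR13B2, ETnERV3-int, IAPEy-int and IAP1-MM_I-int. By sign, 183 of the 259 were higher and 76 lower, with a median log2 change of 0.16, beside 0.17 over all repeats. By an unadjusted p under 0.05, 34 were higher and 16 lower, beside 97 and 27 of 858 tested repeats. RLTR13B1 had 11.4 and 13.5 CPM with cycloheximide, against 33.4 and 34.3 CPM with DMSO (-1.44 ± 0.14, adjusted p = 0.00124), and IAPEy-int, an internal IAP row, 2.05 and 2.92 CPM with cycloheximide, against 8.51 and 8.94 CPM with DMSO (-1.80 ± 0.19, adjusted p = 0.00226, lost without cycloheximide replicate 1). RLTR13B2 and ETnERV3-int (-1.37 ± 0.19 and -1.29 ± 0.18) lost their calls without any 1 of the 4 libraries. The 2 groups were apart in each of these rows. The count was 1 and 2 without cycloheximide replicate 1 or 2, and 2 without either DMSO library. Of 6 fibroblast markers 4 fell and 1 rose with cycloheximide, with a sum of 612 and 603 plain CPM, against 1109.7 and 1343 CPM with DMSO, while the 5 markers of the 2-cell stage rose to 47.7 and 48.5 CPM with cycloheximide, against 6.71 and 5.37 CPM with DMSO (beside 13.4% of genes lower and 13.6% higher). The part of these markers was not tested. IAPEz-int had 244 and 264 CPM with cycloheximide, against 326 and 347 CPM with DMSO (-0.40 ± 0.11, adjusted p = 0.191).

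With MG132 in ESC 0 of 259 members passed the test in edgeR, beside 0% of all repeats, and DESeq2 called 7 higher and 1 lower. By an unadjusted p under 0.05, 86 were higher and 3 lower, beside 183 and 6 of 858 tested repeats. The median over ERVK was 0.36, beside 0.27 over all repeats. No share of all repeats is given for the DESeq2 count or for the refits without 1 library. Leaving out either MG132 library raised the edgeR count, and most of those calls were higher. RLTR13G had 56.1 and 334 CPM with MG132, against 50.9 and 48.6 CPM with DMSO (1.97 ± 0.65, adjusted p = 0.162). MG132 replicate 2 stood apart from the other ESC libraries in this row. RLTR13B1 had 45.0 and 52.1 CPM with MG132, against 33.4 and 34.3 CPM with DMSO (0.52 ± 0.13, adjusted p = 0.12). Its MG132 libraries lay above both DMSO libraries. Fibroblast and 2-cell-stage markers moved with MG132 too, in plain CPM, and their part was not tested. With MG132 the 6 fibroblast markers summed to 652 and 629.6 CPM, against 1109.7 and 1343 CPM with DMSO, and of 6 tested 0 rose and 4 fell, beside 1.9% and 1.34% of genes. With MG132 the 5 2-cell-stage markers summed to 16.9 and 18.8 CPM, against 6.71 and 5.37 CPM with DMSO, and of 5 tested 3 rose and 0 fell.

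**Figure D5:**
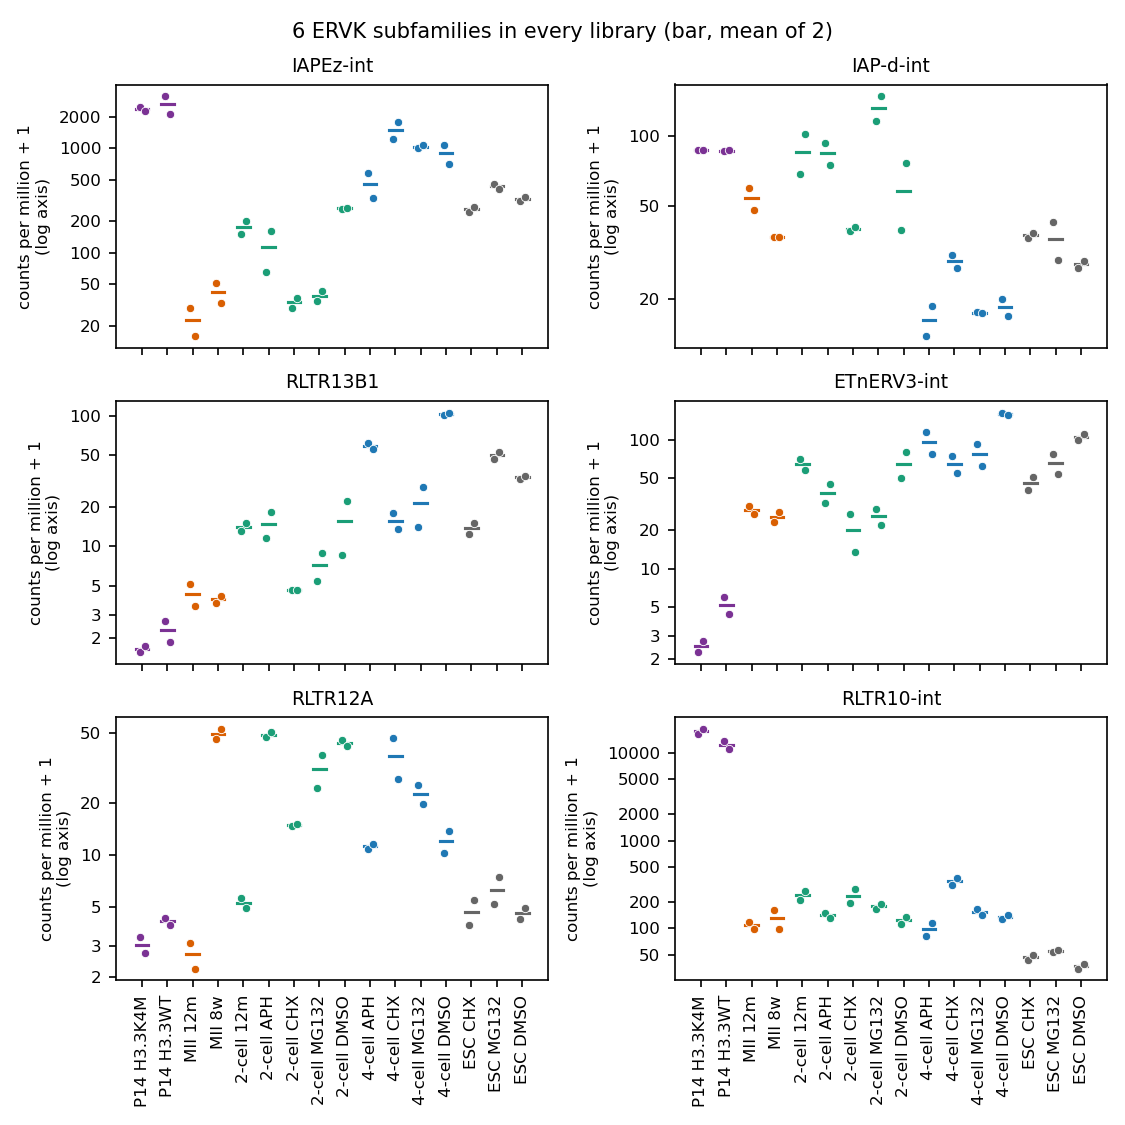
Plain CPM plus 1 (log axes) of 6 members in each library, by group along the x axis, with bars for the mean of 2. RLTR13B1 has 100.3 and 104 CPM in DMSO 4-cell embryos, above all cycloheximide and MG132 libraries of that stage, and RLTR12A has at most 4.67 CPM in 12-month oocytes and embryos, against at least 41.01 CPM in 8-week oocytes and DMSO 2-cell embryos.

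Between the ages 4 of 246 members differed in MII oocytes, 1 higher and 3 lower, beside 0.241% and 0.843% of all repeats. Besides the fall of the LTR RLTR12A (-4.97 ± 0.43) and the rise of RMER17D2 (2.42 ± 0.34), the LTR RLTR17 had 12.7 and 16.1 CPM in 12-month oocytes, against 89.1 and 108 CPM in 8-week oocytes (-2.77 ± 0.30, adjusted p = 0.0159). The internal row ETnERV-int had 9.67 and 9.79 CPM in 12-month oocytes, against 47.01 and 86.6 CPM in 8-week oocytes (-2.78 ± 0.39, adjusted p = 0.0335). The ages did not overlap in these rows, but all 4 calls were lost without either 12-month library (0 calls), while leaving out 8-week replicate 1 or 2 gave 24 or 18 calls. No IAP row passed the test in edgeR, and DESeq2 called 4, lower. By an unadjusted p under 0.05, 0 of 23 IAP rows were higher and 5 lower, beside 27 and 106 of 830 tested repeats. The IAP median was -0.83, beside -0.33 over ERVK, -0.22 over all repeats and -0.02 over all features. IAPEY5_LTR had 14.6 and 7.99 CPM in 12-month oocytes, against 43.5 and 96.98 CPM in 8-week oocytes (-2.63 ± 0.51, adjusted p = 0.092). In plain CPM the 11 oocyte markers summed to 12892 and 13923 in 12-month oocytes, against 14084 and 13022 in 8-week oocytes, and overlapped. The 8 granulosa and cumulus markers summed to 138 and 108 CPM in 12-month oocytes, against 102 and 77.9 CPM in 8-week oocytes. Of 11 and 6 tested, 0 rose and 0 fell, beside 0.802% of genes called. The part of these markers was not tested.

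In 2-cell embryos RLTR12A was the 1 member called between 12-month and vehicle embryos, beside 0.0984% of all repeats lower and 0% higher. It had 5.79 and 4.37 CPM in 12-month embryos, against 40.4 and 38.7 CPM in vehicle embryos (-2.96 ± 0.36, adjusted p = 0.00351), and its call was lost without 12-month replicate 2, which left 0 calls. The same row was low in growing oocytes, at 3.36 and 2.96 plain CPM in H3.3WT. RLTR17 no longer differed past the threshold, with 52.3 and 48.9 CPM in 12-month embryos, against 92.2 and 126 CPM in vehicle embryos (-1.11 ± 0.41, adjusted p = 0.597), and neither did ETnERV-int (-1.42 ± 0.35, adjusted p = 0.209) nor RMER17D2 (1.68 ± 0.44, adjusted p = 0.213). The sign of these 3 changes was that of the MII oocytes. The IAP LTR IAPEY2_LTR had 122 and 112 CPM in 12-month embryos, against 31.8 and 33.1 CPM in vehicle embryos (1.85 ± 0.36, adjusted p = 0.0699). Sums of stage markers differed as well, in plain CPM, and their part was not tested. The 5 2-cell-stage markers summed to 320.0 and 339 CPM in 12-month embryos, against 695 and 966 CPM in vehicle embryos. The 11 oocyte markers summed to 6674 and 7664 CPM in 12-month embryos, against 4699 and 5434 CPM in vehicle embryos. In both lists 0 rose and 0 fell past the threshold, beside 1.21% of genes called.

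In growing oocytes with H3.3K4M 70 of 237 members fell and 9 rose, beside 29.2% of all tested repeats lower and 3.16% higher, and the median log2 change was -0.39, beside -0.45 over all repeats and 0.0026 over genes. The ERVK shares were near those of all repeats. IAPEz-int had 2768 and 2137 CPM in H3.3K4M oocytes, against 2923 and 2151 CPM in H3.3WT oocytes (-0.05 ± 0.22, adjusted p = 0.871), and the groups overlapped. RLTR10-int had 18342 and 17899 CPM in H3.3K4M oocytes, against 12696 and 11306 CPM in H3.3WT oocytes (0.59 ± 0.21, adjusted p = 0.0461), a call that was lost without either H3.3WT library and with 4 other settings. The 2 groups did not overlap in RLTR10-int, which was chosen after its values were seen.

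Of 23 IAP rows tested 6 fell and 1 rose, and the lower ones included both parts of IAPEY5. IAPEY5_I-int had 1.63 and 1.96 CPM in H3.3K4M oocytes, against 4.03 and 4.54 CPM in H3.3WT oocytes (-1.24 ± 0.25, adjusted p = 0.00332), beside the LTR at -3.13 ± 0.26. IAPEY3C_LTR rose (0.69 ± 0.18, adjusted p = 0.0125, lost without H3.3WT replicate 2). RLTR9 LTRs fell in 6 of 11, with RLTR9E at 6.98 and 8.29 CPM in H3.3K4M oocytes, against 24.3 and 18.8 CPM in H3.3WT oocytes (-1.49 ± 0.20, adjusted p = 0.000444). RLTR45 had 16.9 and 23.9 CPM in H3.3K4M oocytes, against 77.8 and 76.5 CPM in H3.3WT oocytes (-1.92 ± 0.19, adjusted p = 4.07e-05), and RLTR40 10.2 and 16.2 CPM in H3.3K4M oocytes, against 48.1 and 46.7 CPM in H3.3WT oocytes (-1.84 ± 0.21, adjusted p = 0.000147). Both H3.3K4M libraries were below both H3.3WT libraries in all these rows that fell. By kind, 56 of 197 LTRs and 14 of 40 internal rows fell (28.4% and 35.0%), beside 29.2% of all repeats. By name, 18 of 61 rows of the remaining RLTR groups and 11 of 40 RMER rows fell, and these shares, like that of IAP, were near that of all repeats. RMER13A2, ERVB5_1-I_MM-int and BGLII fell as well (-2.13 ± 0.24, -1.99 ± 0.28 and -1.11 ± 0.16). Of the ETn and MusD rows MMETn-int and ETnERV3-int fell (-1.11 ± 0.23 and -1.41 ± 0.27; MMETn-int not without H3.3WT replicate 1).

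Among the rows that rose with H3.3K4M, RLTR12D had 9.55 and 13.5 CPM in H3.3K4M oocytes, against 6.16 and 5.82 CPM in H3.3WT oocytes (0.95 ± 0.22, adjusted p = 0.00781), and the internal row RMER17A-int 11.1 and 7.54 CPM in H3.3K4M oocytes, against 4.50 and 4.67 CPM in H3.3WT oocytes (1.01 ± 0.23, adjusted p = 0.00702). Both stood apart from H3.3WT in each library. RMER16B2 and RMER17D2 rose too (1.14 ± 0.33 and 0.81 ± 0.21), RMER16B2 not without H3.3WT replicate 2 and RMER17D2 not without either H3.3WT library. The 79 calls were 43 and 51 without H3.3WT replicate 1 or 2. Markers of the 2-cell stage and of granulosa and cumulus cells were low in these libraries, and some moved, in plain CPM; their part was not tested. In H3.3K4M oocytes the 5 2-cell-stage markers summed to 0.551 and 0.0589 CPM, against 8.14 and 5.15 CPM in H3.3WT oocytes, and of 2 tested 0 rose and 2 fell, beside 8.64% and 13.7% of genes (Zfp352 and Tdpoz4 at 0 in both libraries in H3.3K4M oocytes, and Tdpoz4 at 0 in both libraries in H3.3WT oocytes). In H3.3K4M oocytes the 8 granulosa and cumulus markers summed to 9.22 and 6.09 CPM, against 9.56 and 9.31 CPM in H3.3WT oocytes, and of 6 tested 2 rose and 3 fell (Amh at 0 in all 4 libraries). In H3.3K4M oocytes the 11 oocyte markers summed to 40622 and 38292 CPM, against 39339 and 40444 CPM in H3.3WT oocytes, and of 11 tested 1 rose and 1 fell.

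Genes that silence retroelements were counted from a list of 38, of which 37 are in the files. In 2-cell embryos with cycloheximide 13 of 37 rose and 4 fell (median 0.48, beside -0.26 over all genes), among them Trim28 and Dnmt1 (3.10 and 4.48 on the log2 scale), and with MG132 5 rose and 1 fell. The shares of all genes that rose and fell were 11% and 13% with cycloheximide and 5.1% and 4.68% with MG132. Between 8-week MII oocytes and vehicle 2-cell embryos 7 rose and 7 fell of 36, beside 10.1% and 10.1% of genes. Trim28 and Dnmt1 were lower there (-2.46 and -2.92), but the list median was -0.05, beside 0.33 over all genes. These 2 genes do not stand for the list, which went both ways. In H3.3K4M oocytes 2 rose and 4 fell of 37, with Dnmt3l, a cofactor of DNA methylation in oocytes, at -0.97, beside 8.64% and 13.7% of genes. Cycloheximide did not raise more of them than it lowered in the other cells: 5 rose and 6 fell of 36 at 4 cells, beside 8.77% and 10.3% of genes, and 5 rose and 10 fell of 37 in ESC, beside 13.6% and 13.4%. From 2 to 4 cells under DMSO 8 rose and 11 fell of 36, beside 19.6% and 29.4% of genes, and between MII oocytes and 2-cell embryos of 12-month females 5 rose and 7 fell of 36, beside 5.8% and 6.76%. In each of the remaining 6 comparisons of groups at most 2 rose and at most 1 fell. These are RNA levels, and their part in the ERVK values was not tested.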

How the data were processed

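RNA of 4 growing oocyte, 4 MII oocyte, 10 2-cell, 8 4-cell and 6 ESC libraries was measured. The authors deposited whole read counts per gene and per repeat subfamily (55335 genes, 1153 subfamilies), with trimming by cutadapt 1.16 and alignment by STAR to mm10 per the submitters' processing notes; the counter, annotation, strand and treatment of reads with several hits are not stated in the sources used here. ERVK copies are near-identical, so a read may have been shared between subfamilies or dropped, LTR reads may belong to neighbouring genes, and levels of different subfamilies were not compared per length. The deposited counts were tested with edgeR 4.0.16 in R 4.3.3 (filterByExpr with a minimum count of 10 and total of 15, TMM over genes and repeats, quasi-likelihood F-test), with Benjamini-Hochberg adjustment over all repeat subfamilies tested, genes apart, and a threshold of 0.05. An error after ± beside a log2 change is the standard error, taken as the change over the square root of F. Each stage was fitted with all its groups, stages with 10 libraries, and differences between stages with 18. Plain CPM uses all counts of a library. The 14313718 to 34713159 counts per library give low counting error for most members, and intervals would cover counting error only. The fits were also run on simulated counts, with the same dispersion for every feature and independent libraries. The measured libraries were not shown to have these properties, so that run does not give the error rates of these comparisons. Members, lists and tests were chosen with earlier results of these data known. The rule for named rows took the IAP rows, a list of 23 index rows where measured and, per comparison, up to 5 largest rises and 5 largest falls called at a mean of 5 CPM or more in 1 of the groups and no overlap; other rows named, such as RLTR10-int and RLTR10 in growing oocytes, and RLTR13B1 in comparisons where it passed no test, were chosen after their values were seen. Same-numbered libraries of the 4 treatments at 2 cells deviated together (correlation 0.159 to 0.384 in 6 pairs of groups over 13058 features), which comes from the data and not from the labels. In growing oocytes the same-numbered H3.3K4M and H3.3WT libraries deviated in opposite ways (correlation -0.42 over 11248 features). Cycloheximide and DMSO ESC had a correlation of 0.204. Alternatives were DESeq2 1.42.0, other scalings and filters, a replicate block, joint adjustment, fits of the compared libraries alone and leaving out each library.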

Additional observations from a re-analysis of the deposited data

Results flagged for a closer look

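Members differed between 2 and 4 cells in their response to 2 drugs. By the test of the difference of the log2 changes (2 cells minus 4 cells), 110 members differed for cycloheximide. Of 275 tested, 108 had a lower change at 2 cells (39.3%), beside 34.6% of all repeats, and 18 of 25 IAP rows were among them. IAPEY4_I-int differed by -5.86, RLTR13G by -3.89, IAPLTR1a_Mm by -3.55, IAPLTR2_Mm by -3.26, IAPLTR1_Mm by -3.22 and IAPEz-int by -2.97. MMETn-int differed by -2.54 and RLTR12A by -2.53. RLTR10C differed by -1.35, near the median of -1.29 over all features, and lost its call in 9 of 15 other settings. ETnERV2-int differed by 1.96, in the other direction.

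For MG132 68 members differed. Of 275 tested, 67 had a lower change at 2 cells (24.4%), a share near the 24.7% of all repeats, with 15 of 25 IAP rows among them. IAPEY4_I-int differed by -5.31, IAPLTR1a_Mm by -3.58, IAPLTR2_Mm by -3.30, IAPEz-int by -2.95 and IAPLTR1_Mm by -2.85. RMER17D2 differed by -2.75, MMETn-int by -2.49 and RLTR13D6 by -1.81. The median difference over all features was -1.29 for cycloheximide and -0.49 for MG132. RMER17D2 had 3.79 and 4.51 CPM with MG132 at 2 cells, against 6.34 and 7.94 CPM with DMSO, and 11.4 and 8.83 CPM with MG132 at 4 cells, against 2.85 and 2.06 CPM with DMSO.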

How the results depend on the processing

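Of 228 recounts of the called members over 18 comparisons and differences, 152 stayed within 1.5 times the count, and of 2490 refits of 204 calls of named members 354 lost the call and 0 changed sign; where a count moved, the cause was not tested. The reported counts are 79 for H3.3K4M, 4 for MII age, 1 for 2-cell age, 0 for aphidicolin at 2 cells, 155 for cycloheximide at 2 cells, 118 for MG132 at 2 cells, 0 for aphidicolin at 4 cells, 18 for cycloheximide at 4 cells, 4 for MG132 at 4 cells, 5 for cycloheximide in ESC, 0 for MG132 in ESC, 103 for MII to 2 cells in young, 85 for MII to 2 cells at 12 months, 76 for 2 to 4 cells, 0 for the aphidicolin difference, 110 for the cycloheximide difference, 68 for the MG132 difference, 0 for the age difference. DESeq2 called 23 for MII age, 8 for 2-cell age, 15 for aphidicolin at 2 cells, 7 for aphidicolin at 4 cells, 45 for cycloheximide at 4 cells, 17 for MG132 at 4 cells, 8 for MG132 in ESC, 128 for MII to 2 cells at 12 months, 138 for the MG132 difference and 12 for the age difference. Without a filter the counts were 20 for MII age, 3 for 2-cell age, 6 for aphidicolin at 2 cells, 4 for aphidicolin at 4 cells, 28 for cycloheximide at 4 cells, 15 for MG132 at 4 cells, 13 for cycloheximide in ESC, 20 for MG132 in ESC and 73 for the cycloheximide difference. With a filter of 5 CPM in 2 libraries they were 48 for H3.3K4M, 8 for MG132 at 4 cells, 10 for cycloheximide in ESC and 103 for the MG132 difference. Adjusted over genes and repeats together they were 2 for 2-cell age, 78 for MG132 at 2 cells, 33 for cycloheximide at 4 cells, 13 for MG132 at 4 cells, 24 for cycloheximide in ESC and 6 for MG132 in ESC. With the compared libraries alone they were 0 for 2-cell age, 96 for cycloheximide at 2 cells, 9 for MG132 at 4 cells, 72 for cycloheximide in ESC, 56 for MII to 2 cells in young and 135 for MII to 2 cells at 12 months. With a replicate block the count was 7 for MG132 at 4 cells. The block moved no other count by over 1.5 times; H3.3K4M had 56, cycloheximide at 2 cells 161 and MG132 at 2 cells 126. A crossed block, added after seeing the data, gave 101 for H3.3K4M and 7 for MII age. The counts stayed within 1.5 times under both other scalings. Leaving out each library gave 43 to 72 for H3.3K4M, 0 to 24 for MII age, 0 to 1 for 2-cell age, 0 to 2 for aphidicolin at 2 cells, 109 to 131 for cycloheximide at 2 cells, 39 to 95 for MG132 at 2 cells, 0 to 0 for aphidicolin at 4 cells, 6 to 10 for cycloheximide at 4 cells, 0 to 2 for MG132 at 4 cells, 1 to 2 for cycloheximide in ESC, 0 to 134 for MG132 in ESC, 52 to 75 for MII to 2 cells in young, 27 to 49 for MII to 2 cells at 12 months, 45 to 67 for 2 to 4 cells, 0 to 0 for the aphidicolin difference, 52 to 94 for the cycloheximide difference, 37 to 65 for the MG132 difference, 0 to 0 for the age difference. 

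The log2 ratios of the summed shares have no test. As a share of gene counts (of all counts in brackets) they moved beyond the spread of the libraries to log2 ratios of the ERVK share -1.19 for cycloheximide at 2 cells (-1.02), -0.79 for MG132 at 2 cells (-0.67), 0.55 for cycloheximide at 4 cells (0.41), 1.22 for MII to 2 cells in young (0.98), 1.05 for MII to 2 cells at 12 months (0.80) and of the IAP share -2.29 for cycloheximide at 2 cells (-2.12), -1.39 for MG132 at 2 cells (-1.27), 1.99 for MII to 2 cells in young (1.75). As a share of repeat counts they moved to log2 ratios of the ERVK share 0.053 for MII age (-0.20), -0.044 for cycloheximide at 2 cells (-1.02), 0.0095 for MG132 at 2 cells (-0.67), -0.086 for cycloheximide at 4 cells (0.41), -0.24 for MG132 at 4 cells (0.097), -0.42 for cycloheximide in ESC (-0.26), -0.11 for MG132 in ESC (0.19), -0.79 for MII to 2 cells in young (0.98), -1.21 for MII to 2 cells at 12 months (0.80) and of the IAP share -1.17 for cycloheximide at 2 cells (-2.12), -0.60 for MG132 at 2 cells (-1.27), 0.29 for cycloheximide at 4 cells (0.81), -0.34 for cycloheximide in ESC (-0.18), 0.089 for MG132 in ESC (0.38), -0.0094 for MII to 2 cells in young (1.75), -0.056 for MII to 2 cells at 12 months (1.93). The sign turned round for ERVK in these cases except cycloheximide at 2 cells and in ESC, and for IAP in MII to 2 cells at both ages. With 2 libraries a group, depth was not the limit for abundant members, but rows near 1 CPM rest on few counts.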

Other observations

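MMTV-int, an index row that passed no test with a drug at 2 cells, had more counts in replicate 1 than in replicate 2 of each treatment there. It had 3.56 and 0 CPM with aphidicolin, 12.9 and 0.305 CPM with cycloheximide, 6.48 and 0.172 CPM with MG132 and 0.980 and 0.146 CPM with DMSO in replicates 1 and 2. This row and the next one were singled out after their values were seen.

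In ESC the RLTR13 rows held 6.17% of the ERVK counts in MG132 replicate 2, and 2.02% to 2.42% in the other ESC libraries. RLTR13G made most of the gap, at 333 CPM in that library and 57.1 CPM in MG132 replicate 1.

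RLTR12A, low in 12-month oocytes and 2-cell embryos, had 46.4 and 49.9 CPM in 2-cell embryos with aphidicolin, 13.6 and 14.1 CPM with cycloheximide and 23.4 and 36.6 CPM with MG132. At 4 cells it had 9.20 and 12.7 CPM with DMSO, and in ESC 3.28 and 3.97 CPM with DMSO.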
